A study of Mus musculus with 4 samples.

Results

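The 39 genes described here are p53 and its Mdm inhibitors, genes that p53 is known to switch on for cell cycle arrest, DNA repair and death, and the Bcl2 family. They were found by name in the gene name column of the scanner files, and all 39 were present, at 48 of the 55681 probes (39 of 36163 gene names). Mouse embryonic stem cells of the line E14Tg2A, from strain 129/Ola, were measured as ES cells kept in serum with LIF at day 0 and as epiblast-like aggregates (ELA) floating in a minimal medium with N2/B27 for 2 days. Further ELA were formed in the presence of 50 nM 5-azacytidine (AZA), which blocks DNA methyltransferases, or of 100 µM 5-carboxy-8-hydroxyquinoline (CHQ), which blocks histone lysine demethylases. Each of the 4 groups had 1 one-colour array that held a pool of RNA from 3 experiments, all from 1 cell line. A further array of a Smarca4 knockdown was not analysed here.

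p53 is a transcription factor that DNA damage and other stress stabilise. Its target Mdm2 is the ubiquitin ligase that marks p53 for destruction, so that p53 limits its own level. Targets such as Cdkn1a (p21) halt the cell cycle, others repair DNA, and a further set leads to death through cell surface receptors or through the Bcl2 family, whose members open or guard the outer mitochondrial membrane. Mouse ES cells cycle fast and lack a firm G1 checkpoint.

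No group had a replicate, so no p-value was computed and each value below is that of a single array. A level is the normalized log2 intensity of a probe, and a difference is one array minus another on that scale. Levels of different probes are not compared. A gene was called higher or lower when the 2 arrays differed by 1 or more (log2), their mean was 7.5 or more, and 1 or both of them carried the flag for signal well above background. Within an array, spots of the same probe had an SD of 0.149 (280 probes), which gives an SD of 0.211 for a difference of single spots and covers no biological variation. The ES and ELA arrays shared slide 1 and the AZA and CHQ arrays shared slide 2. In AZA minus ELA and in CHQ minus ELA the treatment and the slide therefore cannot be told apart, while ELA minus ES and CHQ minus AZA lie within a slide. Signal was well above background for 60.6% of gene spots on ES, 55.1% on ELA, and 69.1% and 69.2% on AZA and CHQ. The median local background was 59, 77, 14 and 13 on ES, ELA, AZA and CHQ, and 188, 523, 307 and 308 gene spots were outliers. ELA, the reference for both treatments, was thus highest in both. Fewer cells with a transcript and less transcript per cell cannot be told apart in such pools.

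The cell state labels were checked against markers. All 6 ground state genes (Nanog, Klf4, Esrrb, Zfp42, Nr0b1 and Fgf4) were called lower on ELA than on ES. Of the 4 primed epiblast genes, Fgf5 and Dnmt3b were called higher. Both general pluripotency genes, Pou5f1 and Sox2, were well above background on all 4 arrays. Against ELA, 6 of the 6 ground state genes were called higher with AZA (median difference 3.81) and 5 of 6 with CHQ (median 2.70). Nanog was the exception, at 12.54 on CHQ and 12.53 on ELA, and CHQ was called lower than ES there (-2.49). Of the primed epiblast genes, Fgf5 and Dnmt3b were called lower than ELA with both. Pou3f1 was called lower with AZA (-1.55) and not with CHQ (0.3), and Otx2 with neither (0.33 and -0.31). Against ES, Fgf5 (1.71) and Pou3f1 (1.12) were called higher with CHQ, and neither gene with AZA. Many of the cell state markers thus moved in the same comparisons as the members below, and their part in the members' values was not tested. Among lists for other cell types, 2 of 5 primitive endoderm genes were called higher with CHQ, and Foxa2 was called lower with AZA (-1.81) and with CHQ (-1.01). Gata6 read 6.41, 6.69, 8.06 and 9.89 and Sox17 read 6.37, 6.76, 7.76 and 9.51 on ES, ELA, AZA and CHQ. The mean of the 5 primitive endoderm genes was 6.85, 7.10, 7.42 and 8.22 in the same order, with 3, 2, 5 and 4 of them well above background. Gata4 lay between 7.45 and 7.73 on the 4 arrays. Of the 4 trophoblast genes only 1 was callable and it was not called, Nes of 3 early neural genes was called lower with both, and of 4 fibroblast genes Col1a2 was called lower with both, Thy1 lower with CHQ and Col1a1 higher with AZA. The part of such cells in the values below was not tested.

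p53 binds a response element made of a pair of 10-base units, which may be separated by a spacer. RefSeq promoters (build GRCm38.p6, 250 bases before to 50 after a start) were listed for 30 of the 39 genes, at 42 starts. Tnfrsf10b, Bik, Zmat3, Pmaip1, Perp, Xpc, Ddb2, Rrm2b and Trp53inp1 had no entry in that table. The p53 unit consensus, which reads the same on both strands, was found without mismatch in 12 of the 42 promoters (28.6%) and in 8.36% of all 32851 promoters. These 12 belong to 11 genes, namely Trp53, Mdm2, Cdkn1a, Ccng1, Gadd45a, Sesn1, Polk, Ei24, Aen, Bax and Bmf. Aen is counted at both of its listed promoters, which overlap and hold the same unit. A pair of units with a spacer of 0 to 13 bases and at most 1 mismatch in all was found in 4 of the 42 (9.52%), against 1.09% of all promoters. The other listed start of Cdkn1a held no exact unit. Such a match is a description of letters, not of binding, and many known p53 sites lie outside these windows. The members were picked in part as known p53 targets, so these shares describe that choice and not the arrays. The windows of these 4 promoters are shown, followed by those of Mdm2 and Ei24, which hold a single exact unit and were picked because their genes were called higher than ELA on both treated arrays. Of the 11 genes with an exact unit, 5 were called higher than ELA with AZA and 6 with CHQ. Over all callable genes, 14.2% and 14.8% were called higher. In this set 0 were called lower, and Trp53, Sesn1, Aen, Bax and Bmf were called with neither. Of the 19 genes with a listed promoter and no exact unit, 8 were called higher with AZA and 10 with CHQ. Here 2 were called lower with each treatment, where 11.4% and 11.9% of all callable genes were. Bak1, Bcl2l11, Bid, Casp9 and Sesn2 were called with neither. Each run has 80 bases from 5′ to 3′ on the strand of the gene, lies upstream of the start, and has the p53 units in capitals.
Cdkn1a (chr17:29090882-29090961, plus strand, units from 73 bases upstream of the start, no mismatch, spacer of 12): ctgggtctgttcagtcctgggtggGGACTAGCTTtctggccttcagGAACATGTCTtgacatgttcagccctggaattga
Ccng1 (chr11:40755432-40755511, minus strand, units from 195 bases upstream, 1 mismatch, spacer of 0): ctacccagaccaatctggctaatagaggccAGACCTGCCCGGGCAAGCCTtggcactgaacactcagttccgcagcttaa
Bax (chr7:45467061-45467140, minus strand, units from 212 bases upstream, 1 mismatch, spacer of 1): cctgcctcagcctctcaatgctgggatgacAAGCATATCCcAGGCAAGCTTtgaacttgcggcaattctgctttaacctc
Polk (chr13:96519358-96519437, minus strand, units from 231 bases upstream, 1 mismatch, spacer of 1): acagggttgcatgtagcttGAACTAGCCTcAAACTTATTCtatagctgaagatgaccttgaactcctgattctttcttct
Mdm2 (chr10:117710900-117710979, minus strand, unit from 186 bases upstream): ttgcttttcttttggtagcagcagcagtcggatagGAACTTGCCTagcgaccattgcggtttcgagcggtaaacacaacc
Ei24 (chr9:36797335-36797414, minus strand, unit from 10 bases upstream): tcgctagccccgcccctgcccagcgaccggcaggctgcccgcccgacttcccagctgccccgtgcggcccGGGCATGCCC

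Most of the genes that moved did so on both treated arrays and upward. Against ELA, 15 of the 38 callable members were called higher with AZA, where 14.2% of all 19106 callable genes were, and 2 were called lower, where 11.4% of all were. With CHQ, 20 of 38 were called higher (14.8% of all 19113 callable genes) and 3 lower (11.9% of all). The median difference over the 39 members was 0.69 with AZA and 1.02 with CHQ, while the median over all callable genes was -0.07 and -0.09. Both comparisons use the same ELA array, so they are not independent of each other. Rrm2b was the member that could not be called, since it lay under the mean of 7.5. Under scaling by the 75th percentile or by spike-in probes, 13 members were called higher with CHQ in place of 20. The median of the members minus the median of all genes was 1.11 with CHQ under the main scaling, and it was 1.08 and 1.01 under these scalings.

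**Figure D1:**
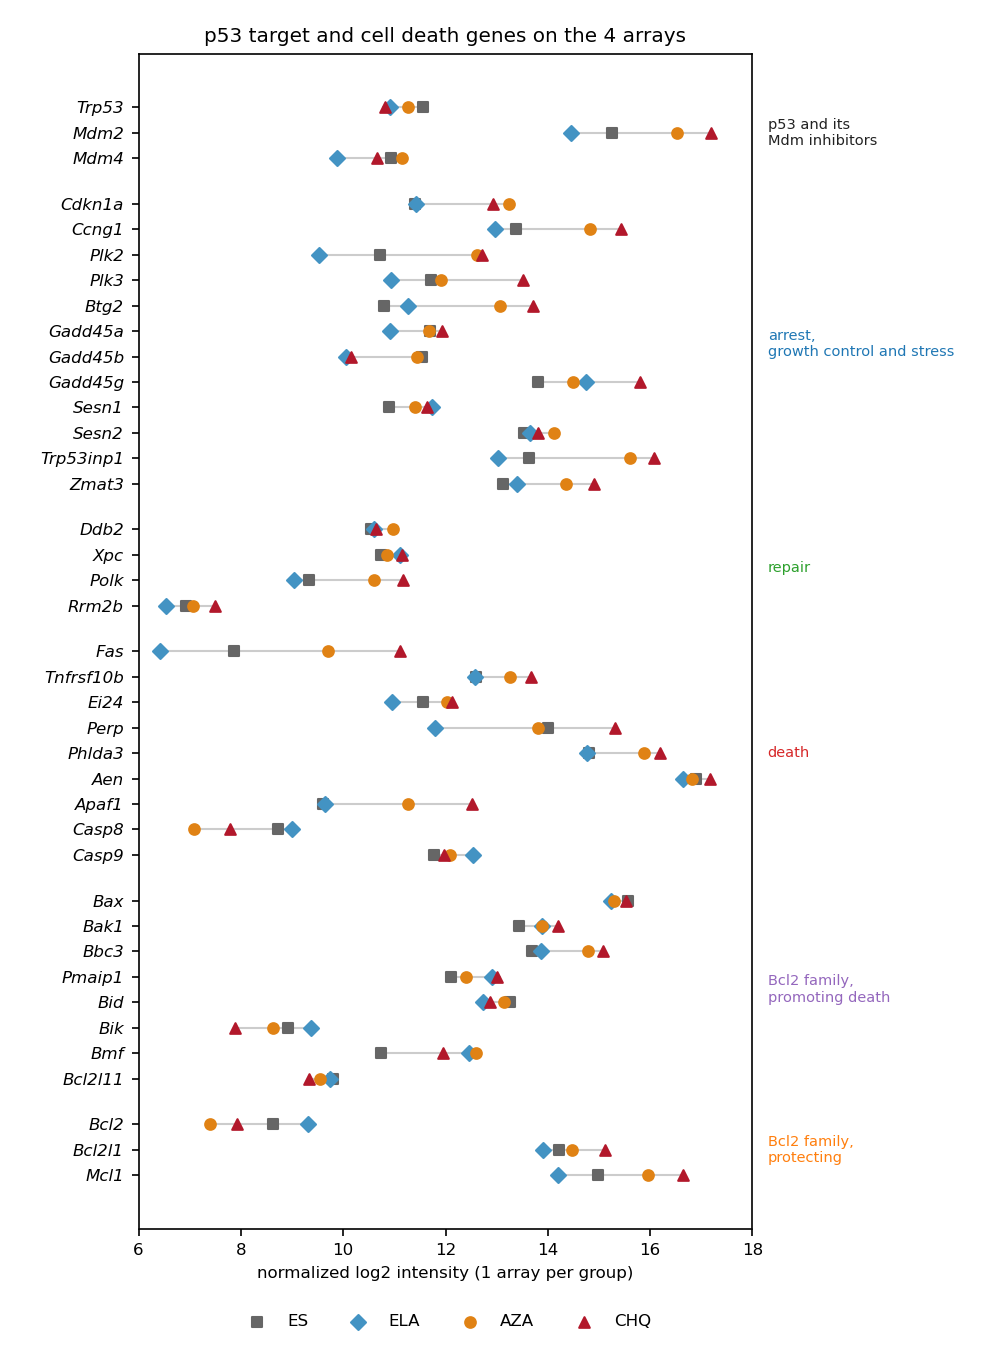
Normalized log2 intensity (x axis) of the 39 genes (rows, grouped by role) on the 4 arrays, 1 point per array. Levels are comparable within a row only. For Mdm2, Ccng1, Plk2, Trp53inp1, Polk and Fas both treated arrays lie to the right of both untreated arrays, while Casp8 and Bcl2 lie to the left.

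Among p53 and its inhibitors, the Mdm2 transcript changed and the Trp53 transcript changed little. Trp53 read 11.56 on ES, 10.92 on ELA, 11.27 on AZA and 10.82 on CHQ, a range of values in which no difference reached 1. Its probe had 2 spots per array, which lay between 10.76 and 10.88 on CHQ and between 11.53 and 11.59 on ES. Mdm2 read 15.26, 14.46, 16.53 and 17.19 in the same order. Both treated arrays were above both untreated ones, with differences from ELA of 2.07 (4.20-fold) with AZA and 2.73 (6.62-fold) with CHQ. Mdm4, the relative of Mdm2 that blocks the transactivation domain of p53, read 10.93, 9.88, 11.14 and 10.66. ELA was the low array there (-1.05 against ES), and AZA was called higher than ELA (1.27) while CHQ was not (0.78). The second Mdm4 probe gave 1.35 and 0.72.

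The largest role group, of 12 genes for arrest, growth control and stress, had 6 members called higher with AZA and 9 with CHQ, and none called lower with either. Over all genes, 14.2% and 14.8% were called higher and 11.4% and 11.9% lower. Its median difference from ELA was 1.19 with AZA and 1.51 with CHQ. Cdkn1a, the inhibitor of cyclin-dependent kinases, read 11.40 on ES, 11.42 on ELA, 13.24 on AZA and 12.92 on CHQ. The untreated arrays were alike and both treated arrays were higher, by 1.82 (3.53-fold) and 1.5 (2.82-fold) against ELA. This probe was spotted 10 times per array, and the spots ranged from 11.27 to 11.61 (ELA), 13.15 to 13.49 (AZA) and 12.74 to 13.19 (CHQ). The spots of the treated and untreated arrays did not overlap. With the mean over its 3 probes, the differences of Cdkn1a from ELA were 1.19 (AZA) and 0.95 (CHQ), and the CHQ call was lost.

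Plk2, a polo-like kinase of the centriole cycle and a classic p53 target, had the largest difference of the group. It read 10.71 on ES, 9.52 on ELA, 12.62 on AZA and 12.72 on CHQ, so that AZA was 3.1 (8.56-fold) and CHQ 3.20 (9.19-fold) above ELA. Of all callable genes, 1.96% lay at least as far above ELA with AZA and 1.86% with CHQ. Plk3, its relative in the stress response, read 11.72, 10.93, 11.92 and 13.51. CHQ alone stood apart there, 2.58 above ELA and 1.59 above AZA, while the AZA difference from ELA was 0.99. Trp53inp1, whose protein promotes the phosphorylation of p53 and autophagy, read 13.63, 13.02, 15.61 and 16.08. Both treated arrays were above both untreated arrays, by 2.59 and 3.06 against ELA.

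Ccng1, a cyclin G that recruits a phosphatase to Mdm2, read 13.38, 12.96, 14.82 and 15.44 on ES, ELA, AZA and CHQ. Btg2, an antiproliferative gene linked to mRNA deadenylation, read 10.80, 11.27, 13.07 and 13.71. For both genes the order of the arrays was the same on the treated side, with CHQ above AZA and AZA above either untreated array. Zmat3, an RNA-binding zinc finger protein, read 13.13, 13.39, 14.36 and 14.90, with 0.97 (not called) and 1.51 above ELA. The Gadd45 genes, small stress sensors with parts in repair and demethylation, did not share a pattern. Gadd45a was above ELA by 0.77 with AZA and 1.02 with CHQ. Gadd45b read 11.55 on ES, 10.05 on ELA, 11.44 on AZA and 10.16 on CHQ, so that CHQ resembled ELA and AZA resembled ES. Gadd45g read 13.80, 14.75, 14.50 and 15.80, and CHQ was called higher than ELA (1.06) and than AZA (1.31). The call against ELA was lost under both other scalings (0.55 and 0.45), and that against AZA with spike-in probes. Sesn1 and Sesn2, sestrins that restrain mTORC1 and limit peroxides, differed from ELA by -0.33 and 0.47 with AZA and by -0.10 and 0.17 with CHQ, and neither was called.

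Of the 4 repair genes, 3 were callable and Polk alone was called higher, with both treatments, where 14.2% and 14.8% of all genes were. It encodes the translesion polymerase kappa and read 9.33 on ES, 9.04 on ELA, 10.60 on AZA and 11.16 on CHQ. Both treated arrays were above both untreated arrays, by 1.56 (2.96-fold) and 2.12 (4.36-fold) against ELA. The second Polk probe gave smaller differences of 0.80 and 1.20. Ddb2 and Xpc, which recognise damage in nucleotide excision repair, differed from ELA by 0.36 and -0.25 with AZA and by 0.03 each with CHQ. Rrm2b, the p53-inducible ribonucleotide reductase subunit, read 6.93, 6.53, 7.06 and 7.5, and it was not well above background on ELA. The other Rrm2b probe was well above background on none of the arrays, so the data are thin for this gene.

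**Figure D2:**
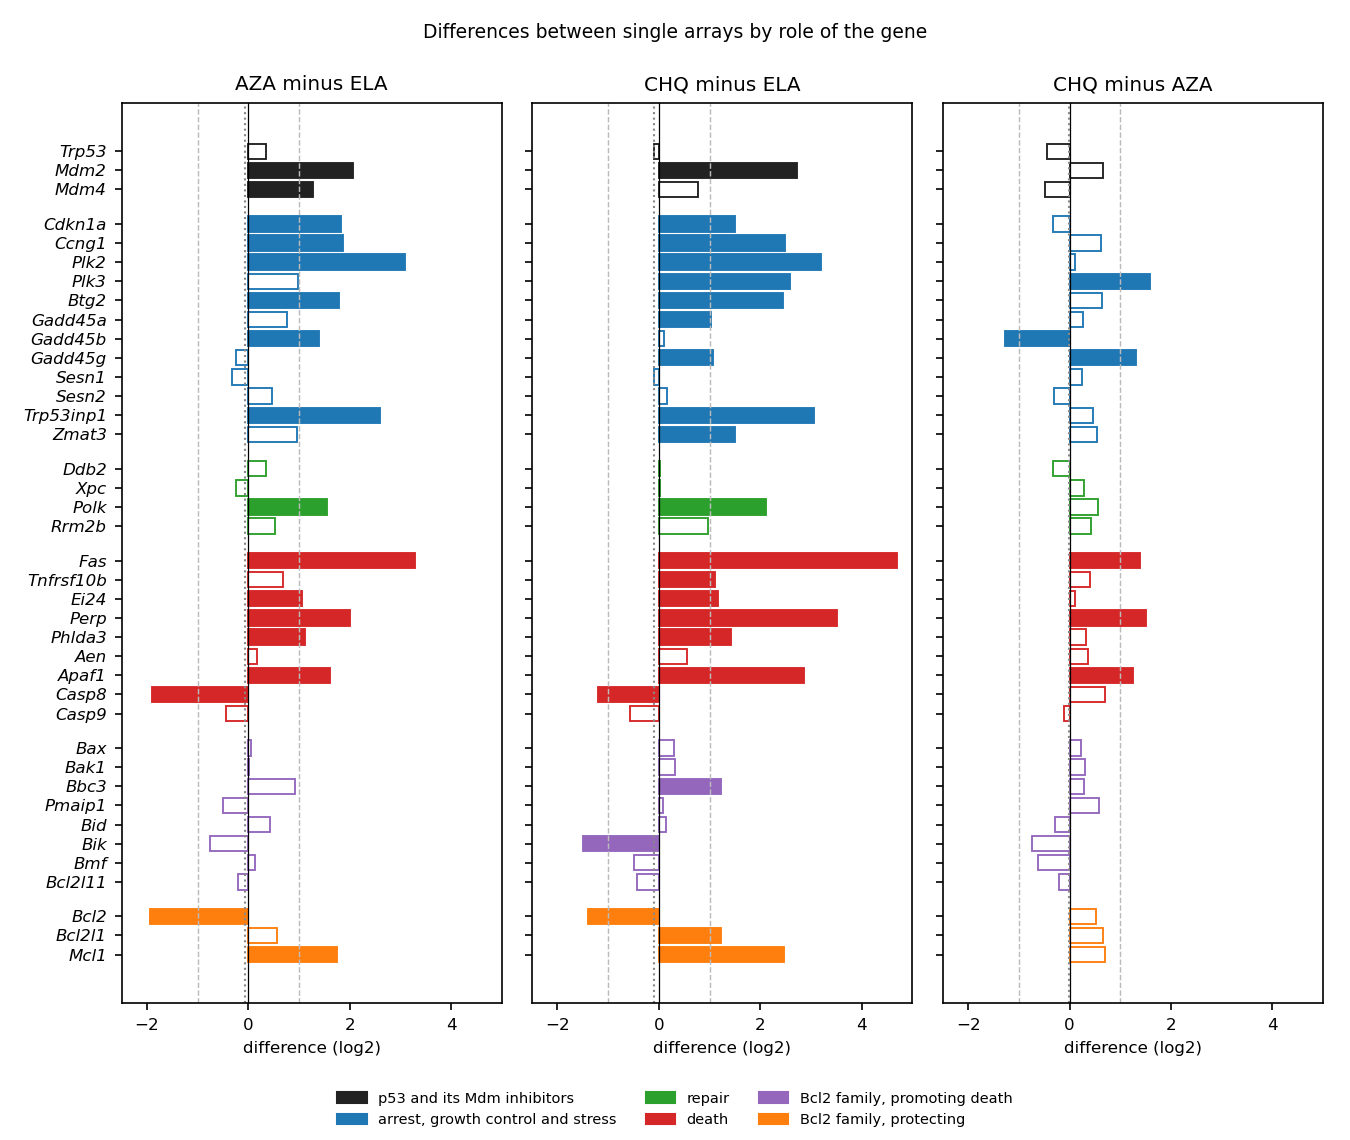
Difference between single arrays (x axis, log2) for each gene (rows, coloured by role) in 3 comparisons. Filled bars were called, open bars were not, dashed lines mark -1 and 1, and the dotted line marks the median of all callable genes. The filled bars are mostly in the arrest and death groups, and the Fas bars against ELA rest on a dim ELA probe.

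In the death group, 5 of 9 genes were called higher with AZA and 6 of 9 with CHQ, and 1, Casp8, was called lower with both. Over all genes, 14.2% and 14.8% were called higher and 11.4% and 11.9% lower. Of the CHQ calls, those of Tnfrsf10b and Phlda3 were lost under both other scalings, that of Fas under the 75th percentile and that of Ei24 with spike-in probes. Fas, the cell surface receptor that starts death on binding Fas ligand, read 7.87 on ES, 6.42 on ELA, 9.71 on AZA and 11.11 on CHQ. Its probe was not well above background on ELA, so the AZA array was at least 7.85-fold higher and the CHQ array at least 20.7-fold higher than ELA, against the lowest signal well above background there (6.74). The 2 spots of the probe lay between 11.05 and 11.17 on CHQ and between 6.28 and 6.57 on ELA. CHQ exceeded AZA by 1.40 within slide 2. Fas was one of the genes whose call rested on a dim array: it was lost with AZA under the 75th percentile, with an offset of 0, in the deposited value table, and where both arrays had to be well above background. The AZA difference itself was larger in the first 3 of these settings (5.60, 4.54 and 4.56, against 3.29), while the mean of both arrays was under 7.5. With CHQ the call was lost under the first and the last of these, although the difference was 7.04 and 4.69 there, against 4.69 in the main setting.

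Perp, a tetraspan membrane protein of desmosomes that p53 induces in apoptosis, read 14.01 on ES, 11.80 on ELA, 13.81 on AZA and 15.32 on CHQ. ELA was the array that stood apart for this gene, 2.21 below ES. AZA was near ES (-0.20) and 2.00 above ELA, while CHQ was above all others, by 3.51 (11.4-fold) against ELA and 1.51 against AZA. Apaf1, the scaffold of the apoptosome, read 9.61, 9.65, 11.26 and 12.51. The untreated arrays were alike, and the differences from ELA were 1.61 (3.05-fold) with AZA and 2.86 (7.28-fold) with CHQ. Phlda3, which competes with Akt for membrane lipids, read 14.80, 14.77, 15.88 and 16.20, again with like untreated arrays and differences of 1.11 and 1.43. The AZA difference was 0.85 when arrays were scaled by the 75th percentile and 0.79 by spike-in probes, so that its call was lost, as was the CHQ call in both cases.

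Ei24, an endoplasmic reticulum protein, was above ELA by 1.06 and 1.16, but above ES by 0.46 and 0.56. Tnfrsf10b, the mouse TRAIL death receptor, was above ELA by 0.69 with AZA and 1.10 with CHQ. Aen, a nuclease that cuts DNA in apoptosis, lay between 16.64 and 17.18 on all 4 arrays. Casp8, the member of the group called lower, went another way. This initiator caspase, which acts below death receptors such as Fas, read 8.73 on ES, 9.0 on ELA, 7.09 on AZA and 7.79 on CHQ. Both treated arrays were below both untreated arrays, with -1.90 and -1.21 against ELA. Casp9, which Apaf1 activates, differed from ELA by -0.44 with AZA and -0.56 with CHQ and was not called.

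Of the 8 Bcl2 family members that promote death, none was called with AZA, where 14.2% of all genes were called higher and 11.4% lower. Their median difference from ELA was 0.03, with a range from -0.75 to 0.93. With CHQ, Bbc3 was called higher and Bik lower (14.8% and 11.9% of all genes), and the median was 0.12, with a range from -1.49 to 1.22. Bbc3 (Puma), a BH3-only protein and p53 target, read 13.70 on ES, 13.86 on ELA, 14.79 on AZA and 15.07 on CHQ. Both treated arrays were above both untreated arrays, with 0.93 and 1.22 against ELA. The CHQ difference was 0.82 and 0.72 under the other scalings and lost its call. Pmaip1 (Noxa), the other well-known BH3-only target, differed from ELA by -0.49 with AZA and 0.09 with CHQ, and its ELA array was 0.80 above ES. Bax and Bak1, which form the membrane pores, differed from ELA by 0.06 and 0.01 with AZA and by 0.29 and 0.32 with CHQ. Bax is thus the gene with a near-complete p53 element among the printed windows whose level changed least, beside 1.82 and 1.5 for Cdkn1a and 1.86 and 2.48 for Ccng1.

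Bik, a BH3-only protein of the endoplasmic reticulum, read 8.93, 9.37, 8.62 and 7.88, and CHQ was 1.49 below ELA. Bmf, a BH3-only protein linked to loss of attachment, read 10.73 on ES, 12.46 on ELA, 12.59 on AZA and 11.96 on CHQ. The ES array stood apart here, since ELA was 1.73 (3.31-fold) above it and the treated arrays stayed within 0.50 of ELA. Bid, which caspase-8 cleaves, differed from ELA by 0.42 with AZA and 0.14 with CHQ, and Bcl2l11 (Bim) by -0.21 and -0.43.

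The 3 protecting members did not move together. Mcl1, a short-lived guardian of the mitochondrial membrane, read 14.98 on ES, 14.19 on ELA, 15.95 on AZA and 16.65 on CHQ, with 1.76 and 2.46 above ELA. Its second probe gave 1.36 and 2.12. Bcl2 itself read 8.63, 9.32, 7.40 and 7.92, and both treated arrays were below both untreated arrays, at -1.93 and -1.40 against ELA. Bcl2l1 (Bcl-xL) was above ELA by 0.56 with AZA and 1.22 with CHQ at its brightest probe, and below ELA by -1.0 and -0.44 at the other.

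In the step from ES to ELA, few members were called. Bmf was called higher, 1 of 37 callable members where 4.46% of all 18896 genes were. Perp, Gadd45b, Plk2 and Mdm4 were called lower, by 2.21, 1.5, 1.20 and 1.05, which is 4 of 37 where 5.59% of all were. With the mean over probes Mdm4 was at -0.99 and was not called. The median over the members was -0.05 and that of all genes -0.02. Spike-in scaling gave 16 members called lower, with a median over all genes of -0.61, and the median of the members relative to that was -0.11.

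Since ELA lay below ES for several members, the treated arrays were also set against ES, a comparison added after the values were seen that crosses the slides as well. ELA was the lowest of the 4 arrays for 19 of the 38 callable members, and for 26.7% of the 18122 genes callable in all these comparisons. With AZA, 13 members were called higher than ES (11.2% of all genes) and 2 lower (8.27% of all). With CHQ, 18 were called higher (12.7% of all) and 2 lower (10.3% of all). With spike-in probes 7 (AZA) and 6 (CHQ) were called higher than ES, and 5 and 10 were called lower, while the median of all genes against ES fell to -0.85 and -1.0. Relative to that, the median of the members was 0.54 with AZA and 0.97 with CHQ, beside 0.53 and 0.99 in the main scaling. Under the 75th percentile 10 and 13 members were called higher. The 10 genes called higher with AZA than both ELA and ES (8.7% of all callable genes) were Mdm2, Cdkn1a, Ccng1, Plk2, Btg2, Trp53inp1, Polk, Fas, Phlda3 and Apaf1. Mdm4, Gadd45b, Ei24, Perp and Mcl1 were called higher with AZA against ELA and not against ES. With CHQ, 17 genes were called higher than both (9.63% of all), and Gadd45a, Ei24 and Bcl2l1 were called against ELA alone. These 10 and 17 genes became 7 and 10 under the 75th percentile, and 6 and 6 with spike-in probes. For the same 10 genes named for AZA, each treated array lay at least 1 above each untreated array, as 5.34% of all genes did. This held for 7 genes under the 75th percentile, without Mdm2, Fas and Phlda3, where 4.88% of all genes did so. With spike-in probes it held for 5 (Plk2, Btg2, Trp53inp1, Fas and Apaf1), where 2.38% of all did. With the mean over probes it held for 8, without Cdkn1a and Polk, where 4.73% of all did. In the main scaling no member lay as far below, where 3.53% of all genes did. Btg2 had a gap of 1.80 between the lower treated and the higher untreated array, Trp53inp1 of 1.98, Plk2 of 1.90 and Fas of 1.84. At its other probe, Trp53inp1 was above ES by 0.33 with AZA and 0.21 with CHQ. The second Polk probe was above ES by 0.47 and 0.86.

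**Figure D3:**
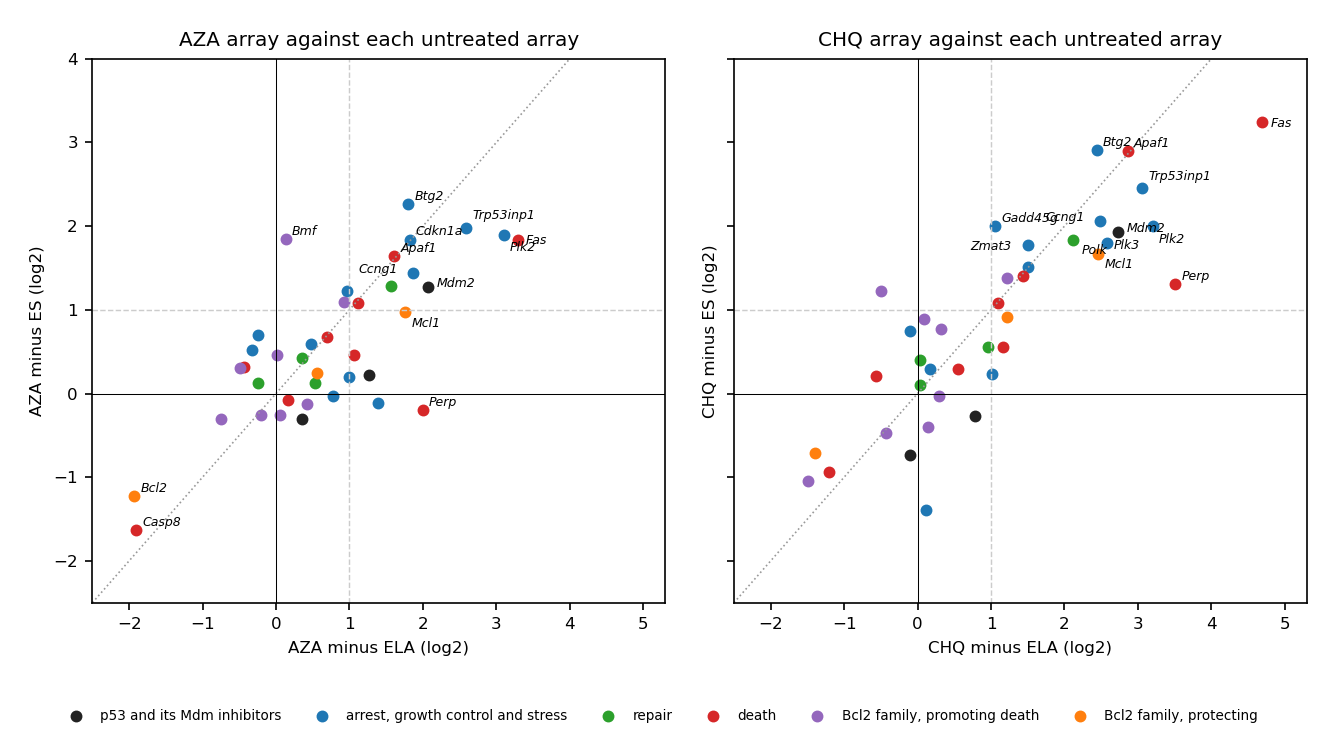
Difference of the AZA array (left) and of the CHQ array (right) from ELA (x axis, log2) and from ES (y axis, log2), 1 point per gene, coloured by role, with dashed lines at 1 and a dotted line where both are equal. Points under the dotted line are genes with ELA below ES, such as Perp, which is at 2.00 and -0.20 with AZA.

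CHQ and AZA were compared within slide 2. CHQ was above AZA for 28 of the 39 members and for 17025 of all 35923 genes. The median difference was 0.32 over the members and -0.02 over all genes. Plk3 (1.59), Perp (1.51), Fas (1.40), Gadd45g (1.31) and Apaf1 (1.26) were called higher with CHQ, 5 of 37 where 5.53% of all genes were. Gadd45b (-1.28) was called lower, 1 of 37 where 4.81% of all were. Of the 13 genes called higher than ELA on both treated arrays, 12 were higher with CHQ than with AZA at the brightest probe. Cdkn1a was the exception (-0.32). Between probes, CHQ minus AZA ran from -0.89 to 0.51 for Cdkn1a and from -0.12 to 0.47 for Trp53inp1. The sign for these genes thus depends on the probe. The doses of the compounds differ in kind, so no order of potency can be read from this.

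Of the 39 genes, 8 had more than 1 probe. All 8 agreed in sign between their probes in ELA minus ES, 6 in AZA minus ELA, 7 in CHQ minus ELA and 6 in CHQ minus AZA. The brightest Cdkn1a probe (chr17:29237377-29237436, build mm9) gave 1.82 with AZA and 1.5 with CHQ. A probe upstream of it (chr17:29235299-29235358) gave 0.80 and 1.31, and one farther upstream (chr17:29227986-29228045) gave 0.94 and 0.05. The lowest probe in CHQ minus ELA thus showed almost none of the difference that the brightest showed. Trp53inp1 gave 2.59 and 3.06 at chr4:11101174-11101233 and 0.91 and 0.79 at chr4:11092530-11092589, the same sign but a smaller size. For Bcl2l1 the probes at chr2:152606404-152606463 and chr2:152655185-152655244 disagreed in sign in both comparisons, so its direction depends on the probe. The mm9 positions were read from the deposited files, and the exon under each probe was not looked up.

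**Figure D4:**
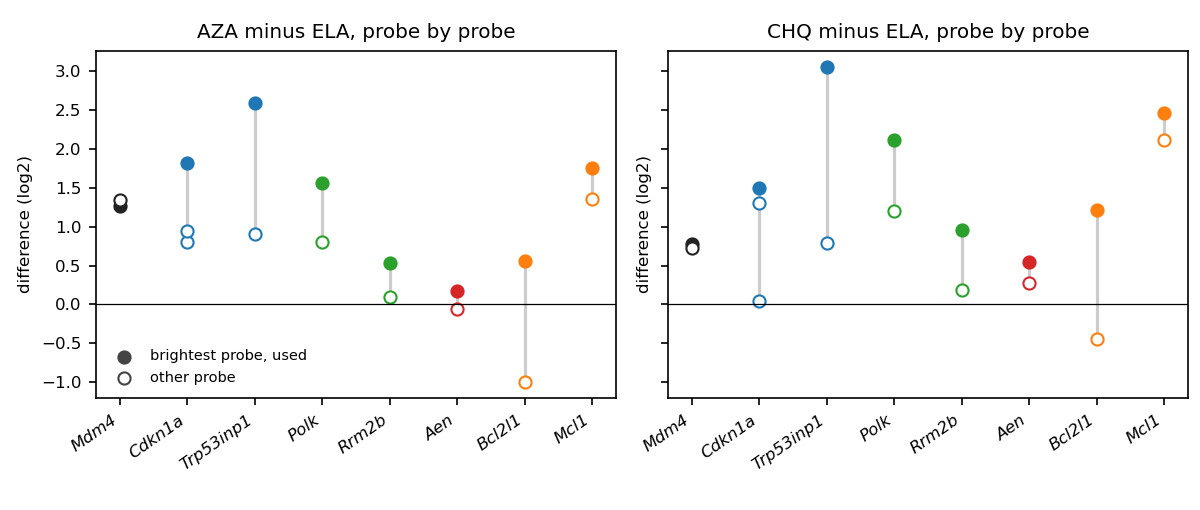
Difference from ELA (y axis, log2) for each probe of the 8 genes with several probes, filled for the brightest probe and open for others. The Bcl2l1 probes lie on both sides of 0, at 0.56 and -1.0 with AZA and at 1.22 and -0.44 with CHQ.

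Other genes of the pathway were read from lists that were chosen with earlier results of these data known. Of 17 callable further p53 targets, 7 were called higher with AZA and 10 with CHQ, and 0 lower with either. Over all callable genes, 14.2% and 14.8% were called higher and 11.4% and 11.9% lower. Gdf15, a secreted stress cytokine, read 9.08 on ES, 8.49 on ELA, 11.75 on AZA and 11.88 on CHQ. Both treated arrays were above both untreated ones. Among 12 callable regulators of p53, 3 (25.0%) were called higher with AZA and 5 (41.7%) with CHQ, where 14.2% and 14.8% of all genes were. Trp73, a p53 relative, was above ELA by 1.93 and 2.46, and Cdkn2a, whose Arf product restrains Mdm2, by 2.26 and 1.62.

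The remaining lists had between 0 and 2 genes called in either direction, where 14.2% and 14.8% of all genes were called higher and 11.4% and 11.9% lower with AZA and CHQ. Of 6 callable death receptors and adaptors, Tradd, an adaptor of the TNF receptor, was called higher with AZA (1.74) and not with CHQ (0.96). Cflar, an inhibitor of caspase-8 activation, was called lower with both (-1.29 and -1.76), and Traf2, a ubiquitin ligase of TNF signalling, with AZA alone (-1.12, and -0.72 with CHQ). Of 16 executioner caspases, apoptosome parts and caspase inhibitors, Dffb, the nuclease of apoptotic DNA cleavage, was called higher with CHQ (1.83). In 7 further Bcl2 family genes, Bnip3, a mitophagy receptor, was called higher with both (1.36 and 1.81), Bcl2l14 with AZA (1.28), and Bok was called lower with CHQ (-1.42). Of 10 cell cycle genes that p21 is known to lower, Cdc25c, a phosphatase that starts mitosis, was called lower with both (-1.45 and -1.56), and Mybl2, a transcription factor of the cell cycle, was called higher with both (2.17 and 1.7). The other 8 were not called with either.

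**Figure D5:**
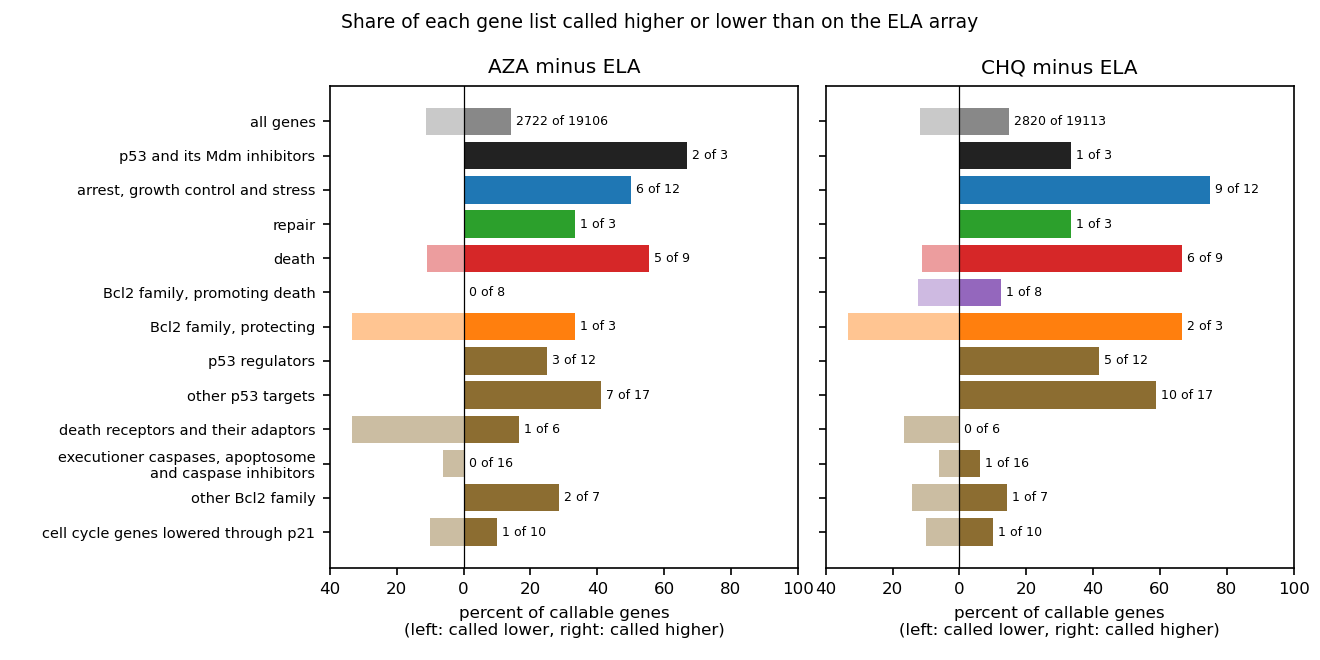
Percent of callable genes in each list called higher (to the right) or lower (to the left, paler) than on the ELA array, with AZA and with CHQ, beside the same for all genes in grey. The arrest list has 6 of 12 and 9 of 12 genes called higher, and the death-promoting Bcl2 list has 0 of 8 and 1 of 8.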

How the data were processed

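Transcripts of 4 pools were measured on one-colour Agilent arrays. Per the file headers, the authors read the scans with Feature Extraction 10.7.3.1, and the submitters' processing notes name version 9.1 and limma. The deposited scanner files hold mean spot intensity, local background intensity and a processed intensity, none of them normalized between arrays, with flags per spot. A deposited table of log2 values, in which the authors had corrected the background and applied quantile normalization, was used as an alternative. On each array it correlated across 55122 probes with a normexp correction of offset 0 at r = 0.9991 to 0.9994, which shows the log2 scale.

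From the scanner files, limma (normexp, offset 50, quantile normalization over the 4 arrays) gave the values used here. Control spots and outlier spots were left out after normalization, spots of a probe were averaged, and the brightest probe stood for a gene. Of 55681 probes, 559 had no usable spot on at least 1 array, and 0 spots were saturated. Gene names are those of the array design, and 35923 remained. The number of arrays limits the precision, and with 1 array per group no test was possible. A probe not well above background has only a bound, for which the brighter array was set against the lowest signal well above background on the dimmer one, or the probe's own where higher. The calling rule was tested on simulated data. Members and lists were chosen with earlier results of these data known. All members are named, and the markers of the cell type check, and of each other list at most 2 genes called higher and 2 called lower, of which some are not reported here. The alternatives were the 75th percentile of the processed signal, scaling by 7 spike-in probes, no background correction, an offset of 0, the mean over probes, 2 other filters on dim probes, and the deposited table. Setting treated arrays against ES, and counting genes with ELA lowest, were added after the data were seen. The positions of probes are on build mm9 and those of promoters on GRCm38.p6, and they were not combined.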

Additional observations from a re-analysis of the deposited data

How the results depend on the processing

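No member called in the main setting changed sign under the 8 alternatives, in the 4 planned comparisons or in those of the treated arrays with ES, but some counts moved. The 2 other filters on dim probes leave the differences as they are, so no sign could change there. No alternative used a dimmer probe alone, and that of Bcl2l1 gave -0.44 in CHQ minus ELA, against 1.22 at the brightest. Spike-in scaling, which shifted the median of all genes in ELA minus ES to -0.61, gave 16 members called lower there in place of 4, with a median over members of -0.71 in place of -0.05. With CHQ against ELA, 13 members were called higher in place of 20 under the 75th percentile and also 13 under spike-in scaling. The median of 1.02 became 0.63 under spike-in scaling and 0.75 with the mean over probes. Gadd45a, Gadd45g, Tnfrsf10b, Phlda3, Bbc3 and Bcl2l1 lost their call with CHQ under both scalings, Ei24 under spike-in scaling, and Fas under the 75th percentile, where its difference was larger (7.04 against 4.69) and its mean under 7.5. With AZA, members called lower went from 2 to 1 under the 75th percentile and to 1 in the deposited value table, in both cases without Casp8, whose difference was larger there (-2.93 and -2.46, against -1.90) while its mean fell under 7.5. In CHQ minus AZA, members called lower went from 1 to 2 under the 75th percentile, with Bik added. Over all genes, calls of CHQ against ELA split into 2820 higher and 2269 lower, against 2312 and 3199 with the 75th percentile, or 2073 and 4113 with spike-in probes. Those of AZA against ELA went from 2722 and 2170 to 2389 and 2782 under spike-in scaling, and those of ELA against ES from 843 and 1056 to 304 and 4039. With the ES array in place of ELA, 13 members were called higher with AZA and 18 with CHQ. Under spike-in scaling these became 7 and 6, members called lower than ES went from 2 and 2 to 5 and 10, those called higher than both ELA and ES from 10 and 17 to 6 and 6, and those with both treated arrays at least 1 above both untreated arrays from 10 to 5. Under the 75th percentile, members higher with CHQ than both went to 10. Members lower with AZA than ES were 1 under that scaling and with an offset of 0, and 0 in the deposited table. No array could be left out and slide could not be a term, since each group had 1 array. No paired analysis was possible because each group had 1 array. Phlda3 also lost its AZA call under both scalings, Cdkn1a its CHQ call and Mdm4 its call in ELA minus ES with the mean over probes, and Gadd45g its call in CHQ minus AZA under spike-in scaling. Dim probes limit Fas and Rrm2b on ELA.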
